A study of Mus musculus with 24 samples.

Results

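The genes at the centre of epithelial-to-mesenchymal transition (EMT) were followed through 4 derivatives of EO771, a mouse mammary carcinoma cell line. They are the Snail factors Snai1 and Snai2, the Twist factors Twist1 and Twist2, the zinc finger homeobox factors Zeb1 and Zeb2, the paired-type homeobox factor Prrx1, and the cadherins Cdh1 (E-cadherin) and Cdh2 (N-cadherin). The 9 members were chosen by name and found by their Ensembl identifiers, and are 9 of the 55471 genes in the table of batch 1. The table of batch 2 lists 13915 genes and holds 7 of the members. Cdh1 and Cdh2 were not analysed in batch 2.

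All derivatives descend from EO771 cells, which came from a spontaneous tumour of a C57BL/6 mouse, and carry the retroviral vector PLNCX2. X2 cells are the vector control. CCR7 cells express mouse Ccr7 cDNA with the tdTomato reporter and are the fraction sorted as negative for podoplanin (PDPN), as their columns are named. CCR7-PDPN cells are Ccr7-expressing cells sorted by flow cytometry for PDPN that had appeared spontaneously on the surface. X2-PDPN cells were sorted for PDPN from the vector control and carry no Ccr7. No clones were picked, so each derivative is 1 population in culture. Polyadenylated RNA was sequenced in 2 batches with 4 libraries per derivative and batch: X2, CCR7 and CCR7-PDPN in batch 1, and X2, X2-PDPN and CCR7-PDPN in batch 2. Libraries of the same derivative and batch are technical replicates, so every SD and p-value below measures the spread between libraries of 1 population and not between independently made populations.

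Each library held from 22275468 to 33395418 counts in batch 1, and from 22788542 to 35721027 counts in batch 2. Ccr7 and Pdpn followed the labels: the mean level of Ccr7 was 0.653 TPM in X2 and 5311 TPM in CCR7 cells, and that of Pdpn 0.853 TPM in CCR7 and 51.9 TPM in CCR7-PDPN cells of batch 1. Levels are given in TPM, which divides a count by the gene's exonic length, scales the library to a fixed total and can be compared between genes. In the chi-square comparison of replicate libraries, the 3 pairs with CCR7 replicate 1 gave 13.5 to 22.5 per degree of freedom, and the other 33 pairs 2.07 to 8.48. Fold changes of the members in comparisons with CCR7 are also given without it, and those of other genes were not refitted. No call of a member in CCR7 against X2 or in CCR7-PDPN against CCR7 cells changed without it. Of the luminal and basal markers of mammary epithelium Krt8 and Acta2 were abundant and most others were not. In X2 of batch 1 Krt8 stood at 441 TPM, Acta2 at 58.2 TPM and Foxa1 at 1.47 TPM. In the same cells Krt18 stood at 0.451 TPM, Epcam at 0.027 TPM, Krt14 at 0.0958 TPM and Krt5 at 0 TPM. Vim, which encodes the mesenchymal filament vimentin, stood at 1975 ± 54.8 TPM (SD, n = 4). Other mesenchymal genes were not detected: of 24 linked to EMT, 17 reached 1 TPM in a mean of batch 1. In every library of that batch 6 of the 24 had at most 3 reads. Fn1 and Col1a2, named after their values were seen, stood at 0.00253 and 0.00864 TPM in X2.

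EMT is a reversible change in which epithelial cells loosen their junctions and take on a migratory, fibroblast-like state. Snail, Zeb and Twist proteins bind E-boxes in DNA, and Snail and Zeb proteins repress Cdh1, whose product holds epithelial cells together at adherens junctions. A switch from E-cadherin to N-cadherin is the classical sign of the transition, although cells can stop at states between both ends.

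In all derivatives 5 of the 7 factors were clearly expressed, and both cadherins were at or near 0 in the 3 derivatives of batch 1. In X2 cells of batch 1 the order was Twist1 at 126 ± 7.15 TPM, Twist2 at 48.8 ± 1.26, Snai1 at 48.8 ± 2.13, Zeb1 at 43.5 ± 0.342, Zeb2 at 22.8 ± 0.899, Prrx1 at 4.28 ± 0.211 and Snai2 at 1.09 ± 0.332 (SD, n = 4). Twist2 and Snai1 overlapped in their libraries and could not be ordered, and every other neighbouring pair was separated by more than its spread. The 7 factors together came to 295 ± 8.33 TPM in X2 of batch 1, with 42.7% of it from Twist1, and to between 290 and 324 TPM in the means of the 6 groups. The share of Prrx1 in that sum was 1.45% in X2 and 0.0543% in CCR7-PDPN cells of batch 1, while the share of Snai1 was 16.5% and 19.5%.

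**Figure D1:**
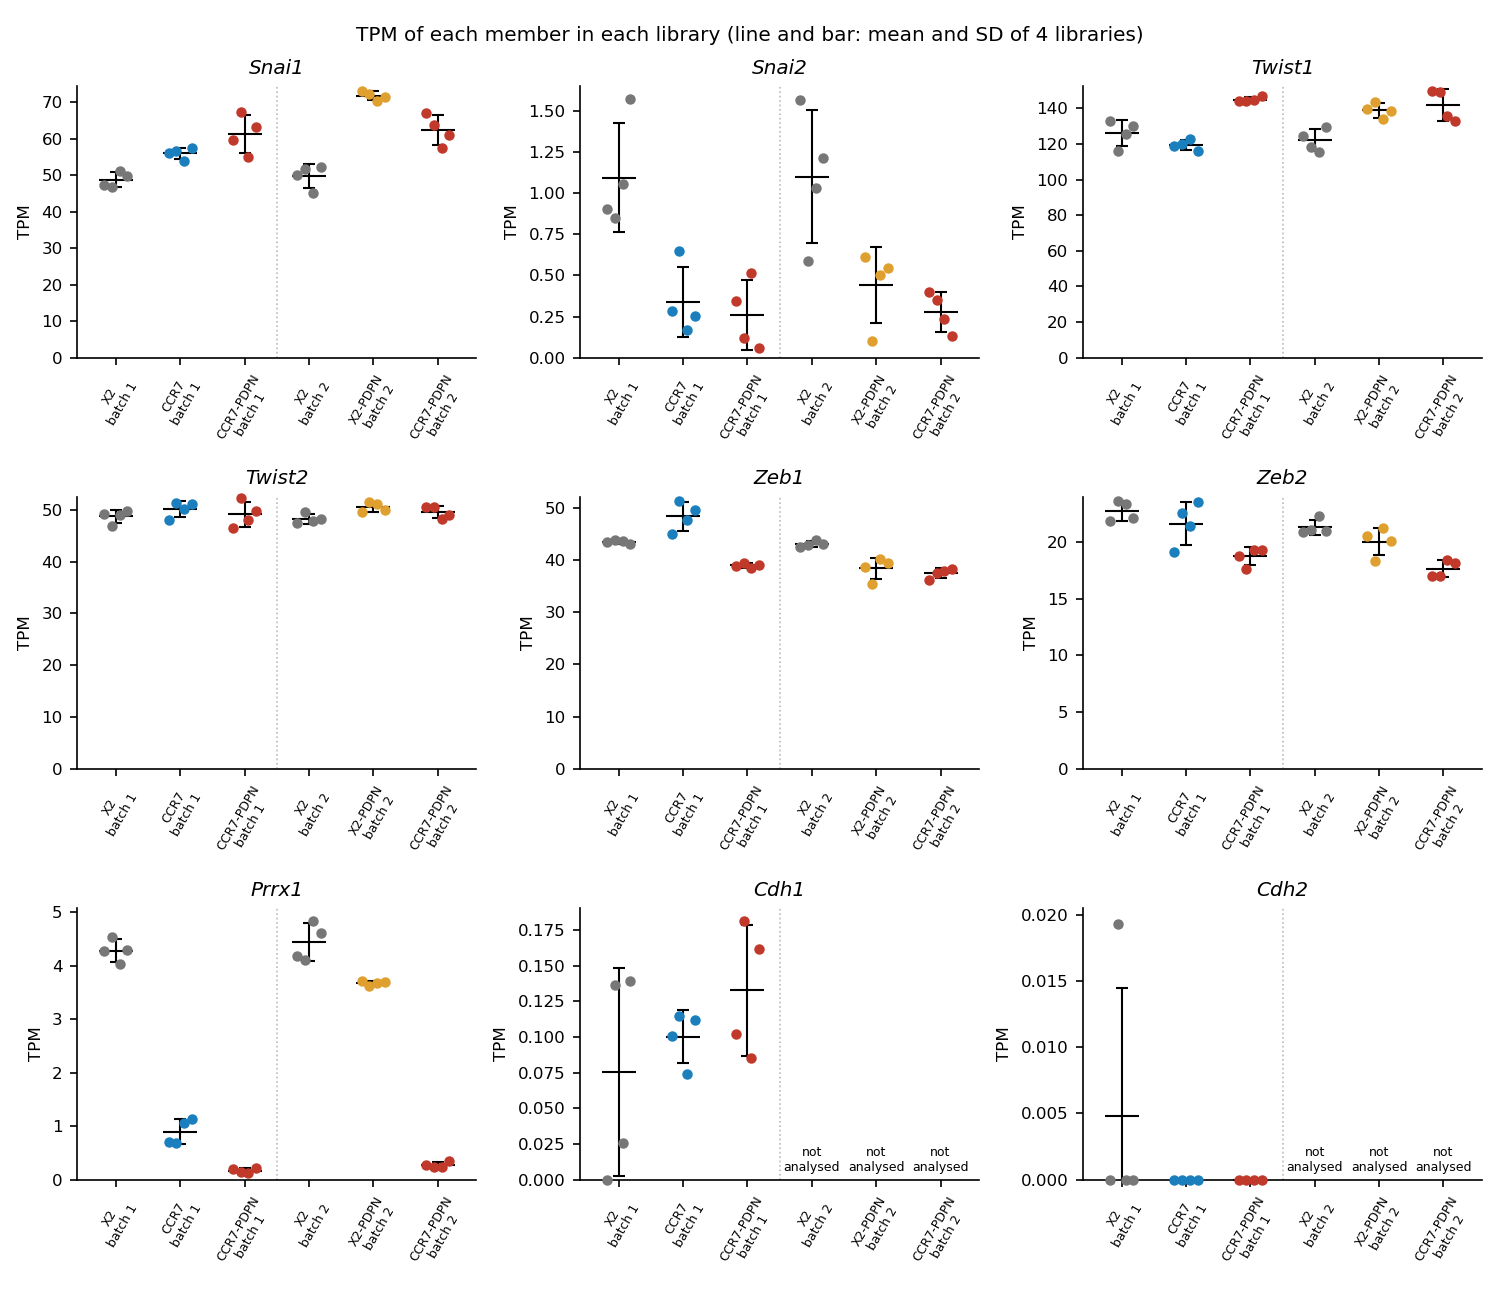
TPM (linear axis from 0) of the 9 members in each library, by derivative and batch, with the mean and the SD of 4 libraries as a line and bar (bars that would pass below 0 end there). Prrx1 lies near 4 TPM in X2 and X2-PDPN and below 1.2 TPM wherever Ccr7 was expressed, Twist2 stays near 50 TPM throughout, and Cdh1 and Cdh2 stay below 0.2 TPM.

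Derivatives were compared inside each batch by the quasi-likelihood test of edgeR with Benjamini-Hochberg adjustment over all genes tested. A gene is said to have risen or fallen at an adjusted p under 0.05, and a stricter call also asks for an absolute log2 fold change above 1. The 3 comparisons of a batch share libraries, so they are not independent of each other. Of the members, 7 passed the filter on low counts in batch 1 and 6 in batch 2. Snai2 passed in batch 1 only through the X2 libraries, in which it is high, so its place in the counts that follow is no support for a difference.

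In CCR7 against X2 cells, which sets cells with Ccr7 and a sort against PDPN beside the vector control, Snai1 and Zeb1 rose and Prrx1 and Snai2 fell, that is 2 of 7 members in each direction against a background of 24% of all genes higher and 25.2% lower. Prrx1 and Snai2 also passed the stricter call, against 6.48% of all genes. In CCR7-PDPN against CCR7 cells Snai1 and Twist1 rose, and Zeb1, Zeb2 and Prrx1 fell, with 20.9% of all genes higher and 20.7% lower. Prrx1 alone passed the stricter call there, against 3.27%. In CCR7-PDPN against X2 cells of batch 1, 2 members rose and 4 fell (background 30.3% and 30.6%), and Prrx1 and Snai2 passed the stricter call (9.45%). In CCR7-PDPN against X2 cells of batch 2, Snai1 and Twist1 rose and Zeb1, Zeb2 and Prrx1 fell (background 32% and 32.8%), and Prrx1 passed the stricter call (9.63%). These are the members other than Snai2, in the same directions as in batch 1.

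In X2-PDPN against X2 cells, the sort for PDPN without Ccr7, Snai1 and Twist1 rose and Zeb1, Zeb2 and Prrx1 fell, with 28.2% of all genes higher and 28.5% lower. By edgeR 0 members passed the stricter call, against 5.05% of all genes, also at an unadjusted p under 0.05, while DESeq2 gave 1, Snai2, which edgeR's filter had left out. CCR7-PDPN and X2-PDPN cells had like levels of Pdpn and differed in Ccr7, but they were sorted as separate populations. Whether Ccr7 had a part in their other differences was not tested. In CCR7-PDPN against X2-PDPN cells Snai1, Zeb2 and Prrx1 fell and 0 members rose by edgeR or DESeq2, also at an unadjusted p under 0.05. The background was 31.2% higher and 32% lower. Prrx1 was the 1 member past the stricter call, against 9.16%. With 6 or 7 members, none of these shares separates the members from the background as a group. The median log2 fold change of the members tested lay between -0.18 and -0.02 over the comparisons, while that of all genes tested was within 0.01 of 0.

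**Figure D2:**
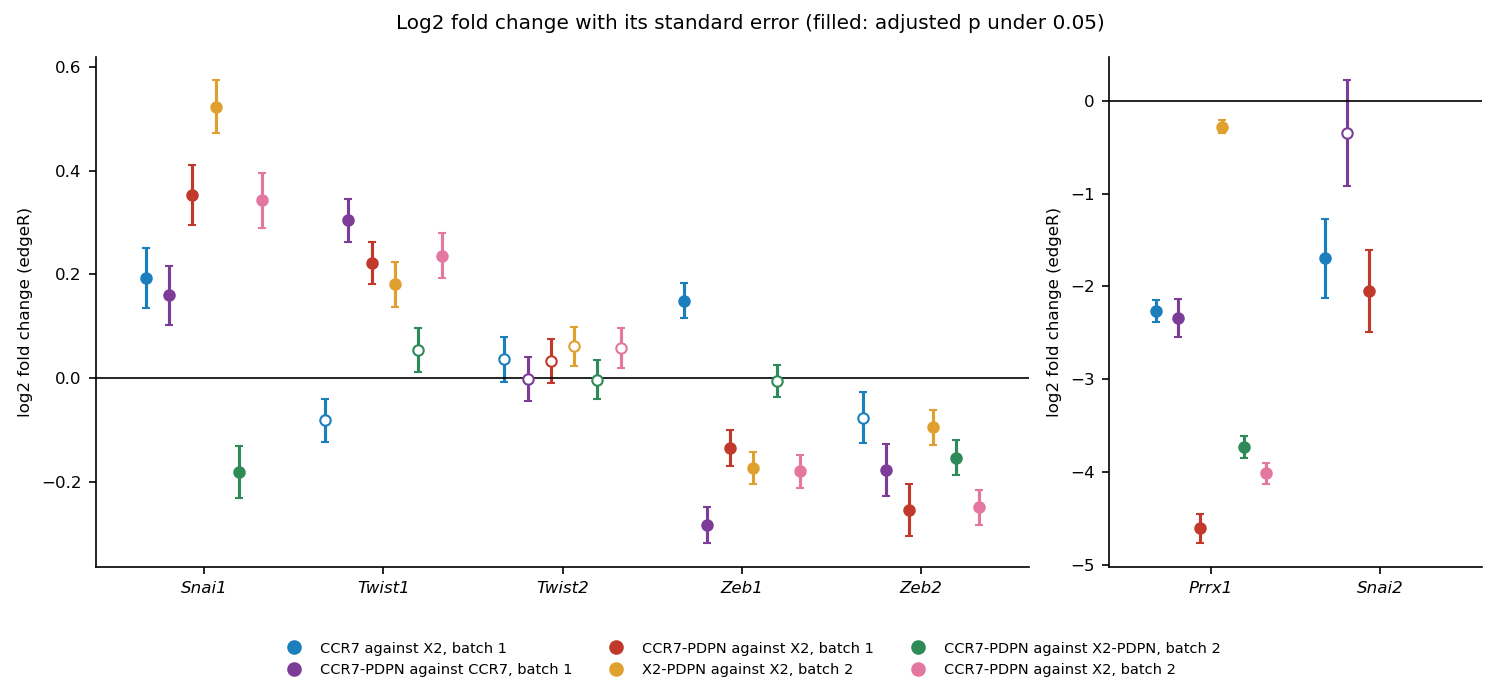
Log2 fold changes with their standard errors for the members tested, in the 6 comparisons (filled points: adjusted p under 0.05). The left axis spans less than 1 log2 unit and holds Snai1, Twist1, Twist2, Zeb1 and Zeb2, and the right axis, on a coarser scale, holds Prrx1, which fell in all 6, and Snai2, tested in batch 1 only.

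Prrx1 moved most. It encodes a homeobox factor of limb and craniofacial mesenchyme and of fibroblasts, and is also known as an inducer of EMT whose loss accompanies the regaining of epithelial traits. In batch 1 its libraries stood at 4.27, 4.54, 4.03 and 4.29 TPM in X2, at 0.709, 0.686, 1.06 and 1.14 TPM in CCR7, and at 0.201, 0.139, 0.129 and 0.212 TPM in CCR7-PDPN cells. In counts these are 323 to 376, 58 to 104 and 11 to 19 reads per library. The 3 derivatives did not overlap. Prrx1 fell by 2.27 (SE 0.12) on the log2 scale in CCR7 against X2 cells (edgeR adjusted p = 9.2e-13), and by a further 2.34 (SE 0.21) in CCR7-PDPN against CCR7 cells (adjusted p = 1.6e-08). Without CCR7 replicate 1 these differences were -2.17 and -2.44.

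In batch 2 Prrx1 stood at 4.19, 4.10, 4.84 and 4.62 TPM in X2 and at 3.72, 3.62, 3.67 and 3.69 TPM in X2-PDPN, and at 0.279, 0.236, 0.234 and 0.341 TPM in CCR7-PDPN cells. All 4 X2-PDPN libraries lay below all 4 X2 libraries, but by a small step: the log2 fold change was -0.28 (SE 0.07, edgeR adjusted p = 5.1e-04). In CCR7-PDPN against X2-PDPN cells, both sorted for PDPN, Prrx1 fell by 3.74 log2 units (SE 0.12, edgeR adjusted p = 3.5e-29), a 13.3-fold lower level. Against X2 they were 24.4-fold lower in batch 1 and 16.2-fold lower in batch 2. RNA of a whole population cannot tell fewer cells with Prrx1 apart from less Prrx1 in each cell.

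Because Prrx1 marks fibroblasts, the markers of other cells were read beside it. The 6 fibroblast markers (Pdgfra, Pdgfrb, Dcn, Lum, Col1a1 and Thy1) summed to between 94.7 and 124 TPM in all libraries (the batch 2 table holds 3 of them, Pdgfra, Pdgfrb and Col1a1). The sums overlapped between X2 and CCR7-PDPN cells in neither batch, with 105 to 107 against 94.7 to 103 TPM in batch 1. Pdgfra (58.4 TPM in X2) and Pdgfrb (46.6 TPM) made up nearly all of it, and Lum and Thy1 were at 0 in X2 of batch 1. Of the 6 leukocyte markers, Lyz2 alone reached 1 TPM, and the list summed to 17.96 to 21.1 TPM in the X2 libraries of batch 1, to 4.02 to 6.46 TPM in those of CCR7, and to 1.69 to 2.56 TPM in those of CCR7-PDPN. In batch 2 Lyz2, the 1 marker of the list in that table, stood at 19.2 to 23.2 TPM in X2, 18.3 to 19.5 TPM in X2-PDPN and 1.11 to 2.05 TPM in CCR7-PDPN cells. That order is the order of Prrx1, while Cd3e and Itgam were at 0 TPM and Ptprc, the pan-leukocyte antigen, at 0.0159 TPM in X2. Whether Lyz2-expressing cells had a part in the level of Prrx1 was not tested.

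Prrx1 lies on chromosome 1 of GRCm38 (163245119-163313710, minus strand). The 49 genes tested that start within 5 Mb of it had median log2 fold changes of -0.01 in CCR7 against X2 cells and -0.13 in CCR7-PDPN against CCR7 cells, and Prrx1 less these medians was -2.26 and -2.21. The bases just upstream of the annotated exons of Prrx1 are given because it is the member with the largest change. No E-box, CANNTG on either strand, lies in these 190 bases from RefSeq (GRCm38.p6, chr1:163313711-163313900, minus strand). Of all RefSeq promoter windows of the same length and place, 57.3% hold at least 1.
Prrx1: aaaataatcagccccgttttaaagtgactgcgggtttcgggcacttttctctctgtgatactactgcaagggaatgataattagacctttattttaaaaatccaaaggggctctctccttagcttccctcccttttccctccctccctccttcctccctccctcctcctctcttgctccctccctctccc

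The genes whose profile was most like that of Prrx1 over the 24 libraries, by Pearson correlation of log2 CPM less the X2 mean of the batch among 933 genes that vary, were Lrrc8c (r = 0.99), Csrp1 (r = 0.98) and Ubash3b (r = 0.98). The points share derivatives and library preparation, so the coefficients only describe the likeness. Ubash3b, which encodes a phosphatase that dampens signalling from tyrosine kinases, had means of 6.16, 1.14 and 0.388 TPM in X2, CCR7 and CCR7-PDPN cells of batch 1, and 6.58, 5.06 and 0.376 TPM in X2, X2-PDPN and CCR7-PDPN cells of batch 2. Its means have the order of those of Prrx1 in both batches. The step from CCR7 to CCR7-PDPN cells was larger for Prrx1, from 0.898 to 0.170 TPM. Csrp1, a LIM protein of the actin cytoskeleton, moved between 80.6 and 186 TPM, a much shallower range.

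Prrx2, the paralogue of Prrx1, was lowest in X2 cells. It stood at 0.657 ± 0.188 TPM in X2 and 0.919 ± 0.223 TPM in CCR7 cells, and at 1.95 ± 0.299 TPM in CCR7-PDPN cells of batch 1 (SD, n = 4), where it rose by 1.13 log2 units (SE 0.24, edgeR adjusted p = 7.5e-04) against CCR7. In X2-PDPN cells it was at 3.03 ± 0.417 TPM against 0.681 ± 0.248 TPM in X2 of batch 2, a rise of 2.14 log2 units (SE 0.25, adjusted p = 5.1e-10). CCR7-PDPN cells of batch 2 had 2.03 ± 0.357 TPM, above X2 and below the X2-PDPN mean.

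Snai1, the Snail factor that represses Cdh1 most directly and is turned over quickly as a protein, was highest in X2-PDPN cells. In batch 1 it stood at 47.4, 46.6, 51.2 and 49.8 TPM in X2, at 56.2, 56.5, 53.9 and 57.5 TPM in CCR7, and at 59.7, 67.4, 55.0 and 63.3 TPM in CCR7-PDPN cells. X2 lay below both other derivatives, and CCR7 and CCR7-PDPN overlapped. In batch 2 it stood at 50.1, 51.7, 45.1 and 52.2 TPM in X2, at 73.0, 72.3, 70.4 and 71.5 TPM in X2-PDPN, and at 67.2, 63.9, 57.6 and 61.1 TPM in CCR7-PDPN cells, with no overlap. The rise in X2-PDPN against X2 cells was 0.52 log2 units (SE 0.05, edgeR adjusted p = 6.8e-12), or 1.44-fold. Against X2, CCR7-PDPN cells had 0.35 (SE 0.06) more in batch 1 and 0.34 (SE 0.05) more in batch 2. The step from CCR7 to CCR7-PDPN was small, 0.16 log2 units (SE 0.06, adjusted p = 0.028), and was lost in a fit of those 2 groups alone (0.16, adjusted p = 0.056). It was also lost without CCR7 replicate 3, CCR7-PDPN replicate 2 or CCR7-PDPN replicate 4, with adjusted p between 0.082 and 0.13. Without CCR7 replicate 1 it was 0.17 (adjusted p = 0.019), and the difference of CCR7 from X2 was 0.19.

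Snai1 lies on chromosome 2 (167538195-167542814, plus strand). The 250 bases upstream of its start (RefSeq, GRCm38.p6, chr2:167537945-167538194) are shown because Snail proteins are known to bind E-boxes, the promoter of their own gene included. They hold 1 E-box, in capitals, and it is of the form CACCTG, which is read as CAGGTG on the other strand. At least 1 E-box occurs in 66.2% of all RefSeq promoter windows of this length, and 17.2% hold CACCTG or CAGGTG.
Snai1: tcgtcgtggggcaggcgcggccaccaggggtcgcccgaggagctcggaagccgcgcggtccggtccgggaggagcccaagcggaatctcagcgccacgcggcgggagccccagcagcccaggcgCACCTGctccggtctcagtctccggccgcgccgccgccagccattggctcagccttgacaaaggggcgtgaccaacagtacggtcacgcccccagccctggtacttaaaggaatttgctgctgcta

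Snai2 (Slug), the Snail factor of neural crest and of basal mammary cells, was near the limit of detection. It had 14, 11, 18 and 25 reads in the X2 libraries of batch 1, 5, 10, 3 and 3 in CCR7, and 6, 2, 8 and 1 in CCR7-PDPN cells. In batch 2 it had 23, 9, 17 and 20 reads in X2, 10, 2, 8 and 8 in X2-PDPN, and 5, 6, 4 and 2 in CCR7-PDPN cells. The mean level was 1.09 and 1.10 TPM in X2 of both batches and between 0.260 and 0.441 TPM in the other 4 groups. The fitted log2 fold changes of batch 1 were -1.70 (SE 0.43) in CCR7 and -2.05 (SE 0.45) in CCR7-PDPN against X2 cells, given as a description because Snai2 passed the filter through X2 alone. With every gene kept in the fit they were again -1.70 and -2.05 (edgeR adjusted p = 1.8e-04 and 6.6e-06). CCR7-PDPN and CCR7 cells overlapped, with a difference of -0.35 (SE 0.57). Without CCR7 replicate 1 the differences of CCR7 from X2 and of CCR7-PDPN from CCR7 were -1.63 and -0.42. The profiles most like that of Snai2 were those of Insl6 (r = 0.83), Retreg1 (r = 0.82) and Irf9 (r = 0.81) over the 24 libraries, which says little at such counts.

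In batch 2 the filter on low counts left Snai2 out, and it was compared by an exact two-sided permutation test of CPM, chosen after seeing the data, for which the smallest p is 0.0286 with 4 libraries against 4. CCR7-PDPN cells had 3.88-fold less than X2 (exact permutation p = 0.0286, adjusted over 6 tests 0.171), and X2-PDPN cells 2.52-fold less (exact permutation p = 0.0571, adjusted 0.171). With every gene kept in the fit, edgeR gave -1.94 (SE 0.42) and -1.37 (SE 0.38) for the same comparisons, with adjusted p of 1.0e-04 and 0.0020. DESeq2 gave -1.97 and -1.36, with adjusted p of 3.0e-04 and 0.0075. The call of Snai2 in batch 2 therefore depended on the filter.

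Twist1 and Twist2 are basic helix-loop-helix factors of mesoderm and mesenchyme and pair with E proteins such as the product of Tcf3. Twist1 was the most abundant of the 9 members. In batch 1 it stood at 133, 116, 126 and 130 TPM in X2, at 119, 120, 123 and 116 TPM in CCR7, and at 144, 144, 145 and 147 TPM in CCR7-PDPN cells. X2 and CCR7 overlapped, and CCR7-PDPN lay above both. Twist1 rose by 0.30 log2 units (SE 0.04, edgeR adjusted p = 5.6e-06) in CCR7-PDPN against CCR7 cells, and the difference of CCR7 from X2 was -0.08 (SE 0.04, adjusted p = 0.11). It passed at -0.12 (adjusted p = 0.018) when X2 replicate 2, the lowest X2 library, was left out. Leaving out CCR7 replicate 1 gave -0.08 in CCR7 against X2 and 0.30 in CCR7-PDPN against CCR7 cells.

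In batch 2 Twist1 stood at 124, 118, 116 and 130 TPM in X2, at 139, 143, 134 and 139 TPM in X2-PDPN, and at 150, 149, 135 and 133 TPM in CCR7-PDPN cells. Both PDPN-sorted derivatives lay above X2 and overlapped each other. The rise was 0.18 (SE 0.04, adjusted p = 5.3e-04) in X2-PDPN and 0.24 (SE 0.04, adjusted p = 1.4e-05) in CCR7-PDPN against X2 cells. The 22 genes tested within 5 Mb of Twist1 on chromosome 12 had a median of 0.15 and 0.23 in these comparisons, and Twist1 less that median was 0.03 and 0.01. Whether the region had a part in the rise was not tested.

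Twist2 passed the test in 0 of the 6 comparisons by edgeR, also at an unadjusted p under 0.05, and in 0 of them by DESeq2 or any other setting tried. Its libraries stood between 46.6 and 52.2 TPM in all 24, and the group means between 48.3 and 50.6 TPM. Its differences without CCR7 replicate 1 were 0.05 in CCR7 against X2 and -0.02 in CCR7-PDPN against CCR7 cells. The interval of its log2 fold change reached from -0.05 to 0.12 in CCR7 against X2 cells and from -0.01 to 0.14 in X2-PDPN against X2 cells, so larger changes lie outside the 95% interval of these libraries. Of the 75-base words of its transcripts, 45.3% also lie in transcripts of Gm29100, a gene on the opposite strand with 89 to 256 reads per library in batch 1. Whether the counting used strand is not given in the sources used here, so the 2 genes may have been counted apart or not.

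Zeb1 and Zeb2 encode repressors that keep Cdh1 off and are held in check by microRNAs of the miR-200 family in epithelial cells. Zeb1 rose in CCR7 cells and was lower in both PDPN-sorted derivatives. In batch 1 it stood at 43.4, 43.9, 43.5 and 43.1 TPM in X2, at 44.9, 51.3, 47.7 and 49.5 TPM in CCR7, and at 38.9, 39.4, 38.4 and 39.0 TPM in CCR7-PDPN cells, with no overlap. In batch 2 it stood at 42.5, 42.8, 43.9 and 43.0 TPM in X2, at 38.6, 35.4, 40.1 and 39.3 TPM in X2-PDPN, and at 36.2, 37.5, 37.8 and 38.3 TPM in CCR7-PDPN cells, and the PDPN-sorted derivatives overlapped each other. The differences were 0.15 (SE 0.03, edgeR adjusted p = 0.0011) in CCR7 against X2, -0.28 (SE 0.03, adjusted p = 1.4e-06) in CCR7-PDPN against CCR7, and -0.17 (SE 0.03, adjusted p = 5.6e-06) in X2-PDPN against X2 cells. The first 2 were 0.18 and -0.32 without CCR7 replicate 1.

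Zeb1 lies on chromosome 18, whose genes had lower values in PDPN-sorted cells on the median. The median log2 fold change of its 340 genes was -0.23 in CCR7-PDPN against CCR7 cells, and that of the 336 tested in batch 2 was -0.20 in X2-PDPN against X2 cells. Of the 24 genes within 5 Mb of Zeb1, 19 were lower in CCR7-PDPN against CCR7 cells by edgeR, with a median of -0.32, and 18 were lower and 1 higher in X2-PDPN against X2 cells, with a median of -0.35. Zeb1 less these medians was 0.03 and 0.17. The nearest gene tested on either side, Zfp438 and Arhgap12, had -0.50 (SE 0.10) and -0.39 (SE 0.04) in CCR7-PDPN against CCR7 cells. Zeb1 was thus lower against all genes in the PDPN-sorted cells and slightly above the median of its neighbourhood, a difference that was not tested.

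Zeb2 was lowest in CCR7-PDPN cells of both batches. It stood at 21.8, 23.7, 23.4 and 22.1 TPM in X2, at 19.1, 22.5, 21.4 and 23.5 TPM in CCR7, and at 18.7, 17.6, 19.3 and 19.3 TPM in CCR7-PDPN cells of batch 1. In batch 2 it stood at 20.9, 21.04, 22.3 and 20.95 TPM in X2, at 20.5, 18.4, 21.2 and 20.1 TPM in X2-PDPN, and at 17.0, 17.0, 18.4 and 18.2 TPM in CCR7-PDPN cells. CCR7-PDPN lay below X2 in both batches without overlap, by -0.25 in each (SE 0.05 and 0.03, edgeR adjusted p = 2.2e-04 and 2.4e-08). X2-PDPN and X2 libraries overlapped in TPM. Without CCR7 replicate 1, the differences in batch 1 were -0.02 in CCR7 against X2 and -0.23 in CCR7-PDPN against CCR7 cells, beside -0.08 and -0.18 with it. The small step in X2-PDPN against X2 cells (-0.10, SE 0.03, adjusted p = 0.014) was lost without X2 replicate 3 or X2-PDPN replicate 2, at adjusted p of 0.057 and 0.13. Zeb2os, on the opposite strand, had 73 to 125 reads per library in batch 1 and shares 1.49% of the 75-base words of Zeb2.

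The design also sets the PDPN difference with Ccr7 (CCR7-PDPN less CCR7, batch 1) against that without it (X2-PDPN less X2, batch 2). The test of this interaction spans both batches, since no batch holds all 4 derivatives, and CCR7 cells were sorted as PDPN-negative. It called 2 of 7 members, against 40.8% of all genes. Prrx1 differed by -2.06 (SE 0.21, edgeR adjusted p = 3.8e-10): the PDPN difference was -2.34 with Ccr7 and -0.28 without. Snai1 differed by -0.36 (SE 0.08, adjusted p = 3.6e-04), with a rise of 0.16 with Ccr7 and of 0.52 without. Twist1 (0.13, SE 0.06, adjusted p = 0.10), Twist2 (-0.06, SE 0.05), Zeb1 (-0.11, SE 0.05, adjusted p = 0.062), Zeb2 (-0.08, SE 0.07) and Snai2 (1.02, SE 0.73) did not pass. Without CCR7 replicate 1, Zeb1 (-0.14, adjusted p = 0.0051) and Zeb2 (-0.14, adjusted p = 0.036) passed too, for 4 of 7.

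**Figure D3:**
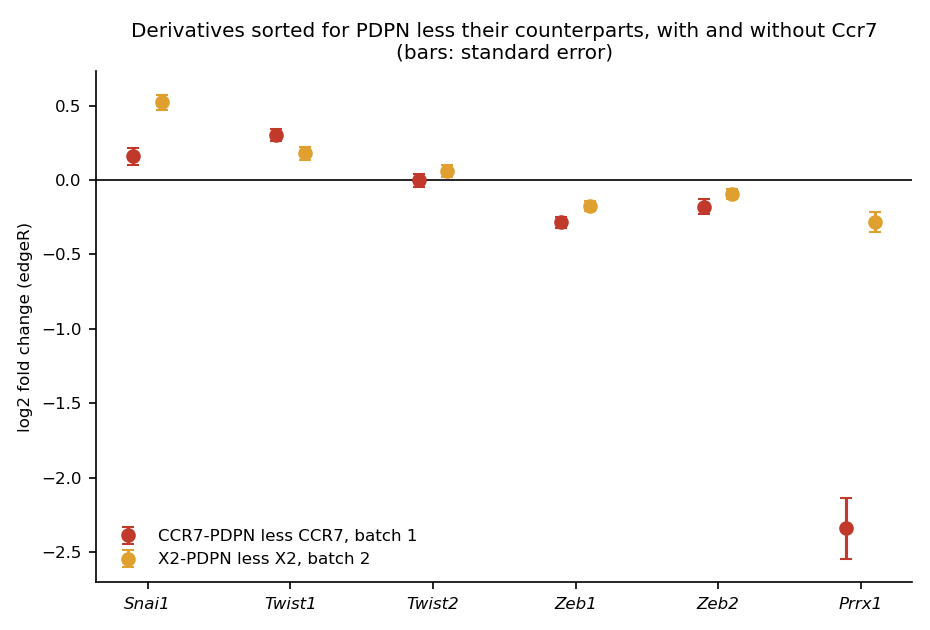
Log2 fold change of each PDPN-sorted derivative against its counterpart, with the standard error, in Ccr7-expressing cells of batch 1 and in vector control cells of batch 2, for the 6 members tested in both batches. The pairs of points lie within 0.2 units of each other for Twist1, Twist2, Zeb1 and Zeb2, and those of Snai1 and Prrx1 differ by -0.36 and -2.06.

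Cdh1 and Cdh2 were hardly transcribed. Cdh1 had 0, 4, 1 and 5 reads in the X2 libraries, 4, 4, 3 and 3 in CCR7, and 4, 7, 3 and 6 in CCR7-PDPN cells of batch 1. The groups overlapped, and their means of 0.0753, 0.100 and 0.133 TPM lie around the 0.0739 to 0.112 TPM that 3 reads are worth in these libraries. In the exact two-sided permutation test the 3 comparisons gave p between 0.257 and 0.514, so a difference was not detectable at this depth. Cdh2 had 1 read in X2 replicate 2 and 0 in the other 11 libraries, and a count of 0 allows up to 3 reads, or 0.0419 to 0.0633 TPM. Neither partner of the cadherin switch was thus measured above 0.2 TPM in any library of batch 1.

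Cdh1 lies on chromosome 8 (106603351-106670246, plus strand), in a stretch whose genes were known to be raised in the Ccr7-expressing cells when the members were chosen. Of the 112 genes tested within 5 Mb of its start, 99 were higher and 2 lower in CCR7 against X2 cells, with a median log2 fold change of 0.94, whereas the 750 genes of the whole chromosome had a median of -0.12. The 110 such genes of batch 2 had a median of 1.01 for CCR7-PDPN and of -0.21 for X2-PDPN against X2 cells. Tango6, the nearest gene tested after Cdh1, rose by 1.21 (SE 0.05) in CCR7 against X2 cells, and Gm10073, the nearest before it, had 0.15 (SE 0.28, edgeR adjusted p = 0.68). Cdh1 itself summed to 10, 14 and 20 reads over the 4 libraries of X2, CCR7 and CCR7-PDPN cells, too few to say whether it shared in the rise of its neighbours.

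**Figure D4:**
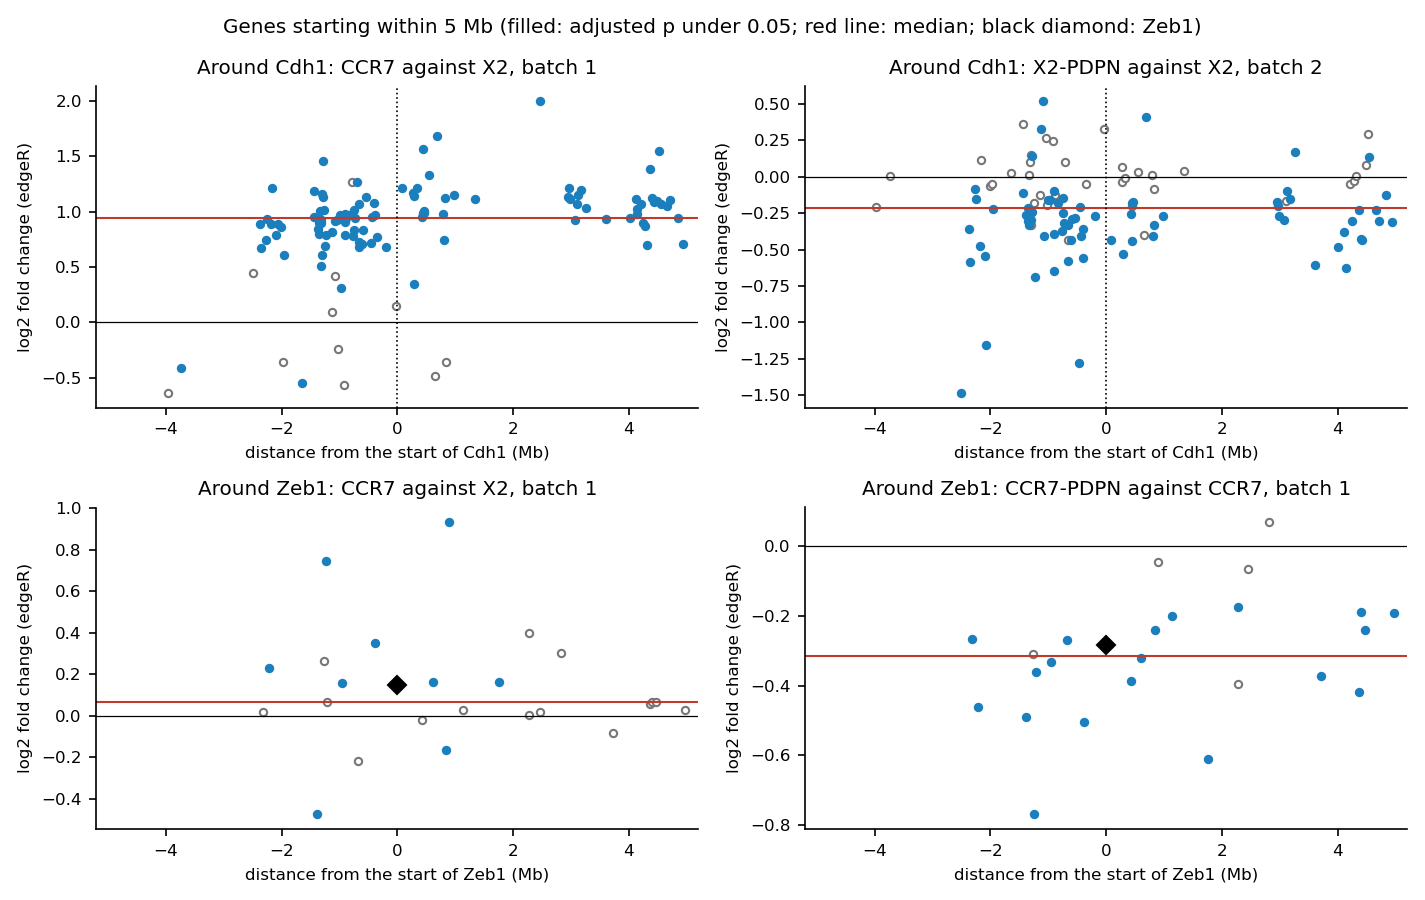
Log2 fold changes of the genes tested that start within 5 Mb of Cdh1 (upper row) and Zeb1 (lower row), by distance from the start of the member in Mb. The red line is the median, and the diamond is Zeb1. Around Cdh1 the median is 0.94 for CCR7 and -0.21 for X2-PDPN cells, each against X2. Around Zeb1 it is 0.06 in CCR7 against X2 and -0.32 in CCR7-PDPN against CCR7 cells.

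Cdh2, on chromosome 18 (16588877-16809246, minus strand), lies in a gene-poor region with 21 genes tested within 5 Mb. Their median was -0.02 in CCR7 against X2 and -0.21 in CCR7-PDPN against CCR7 cells. The nearest genes tested, Gm10036 and Gm10269, gave 0.02 (SE 0.05) and -0.47 (SE 0.28) in the second comparison and did not pass.

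Of 20 other cadherins, 13 had at most 3 reads in every library of batch 1 and 2 reached 1 TPM, both named here after their values were seen. Cdh13, or T-cadherin, which is held to the membrane by a lipid anchor and lacks the tail that binds catenins, stood at 39.3 ± 1.07 TPM in X2, 53.2 ± 6.64 in CCR7 and 42.2 ± 1.92 TPM in CCR7-PDPN cells of batch 1 (SD, n = 4). It was lower in X2-PDPN (27.6 ± 0.865 TPM) than in X2 cells of batch 2 (40.0 ± 0.730 TPM), by -0.54 log2 units (SE 0.03, edgeR adjusted p = 1.3e-19). CCR7 cells had 0.43 (SE 0.07) more Cdh13 than X2, and CCR7-PDPN cells 0.64 (SE 0.03) more than X2-PDPN. From CCR7 to CCR7-PDPN cells it fell by 0.31 (SE 0.07). Cdh13 lies on chromosome 8, as Cdh1 does, but not within 5 Mb of it. Whether the raised stretch of that chromosome had a part in these differences was not tested. Cdh24, a classical-type cadherin, stood at 3.03 ± 0.168 TPM in X2-PDPN and 1.39 ± 0.0588 TPM in CCR7-PDPN cells and fell by 1.10 (SE 0.15) between them. Cdh5, the cadherin of endothelium, also passed the stricter call there (2.44, SE 0.46), from 0.0855 to 0.437 TPM, with X2 between them at 0.226 TPM. It had at most 17 reads in any library of batch 1, so its values are given as a description. In batch 1 it was not called in CCR7-PDPN against X2 cells (0.64, edgeR adjusted p = 0.19). The endothelial markers summed to at most 1.41 TPM in any library (3 of the 5 are in the batch 2 table). Cdh5 lies within 5 Mb of Cdh1, among genes whose median in that comparison was 1.29. Whether endothelial cells or the region had a part in its rise was not tested.

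The catenins that tie cadherins to actin were abundant. Of 13 catenins and partners, 10 reached 10 TPM, with a median of 43.9 TPM in X2 cells, and the 3 others had at most 3 reads. Between 3 and 5 of the 10 tested rose and 3 or 4 fell in each comparison, close to the background of 20.9% to 32% higher and 20.7% to 32.8% lower. Jup (plakoglobin), the catenin shared by adherens junctions and desmosomes, rose by 1.04 log2 units (SE 0.05, edgeR adjusted p = 1.6e-23) in X2-PDPN against X2 cells, from 14.6 ± 0.768 to 30.2 ± 1.09 TPM. Arvcf, a p120-type catenin, fell by 1.04 (SE 0.05) in CCR7-PDPN against X2 cells of batch 2, from 20.5 to 9.75 TPM.

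Most regulators of the epithelial state had low levels. Of 18 epithelial-state regulators, 9 had at most 3 reads in every library of batch 1, and the list had a median of 0.0313 TPM in X2 cells. In the means of batch 1, 3 of the 18 reached 10 TPM, Klf5 among them. In CCR7-PDPN against X2 cells, 5 of 7 tested fell and 2 rose in batch 1, and 6 of 8 fell and 2 rose in batch 2, with list medians of -0.97 and -1.09 log2 units. The background was 30.3% of all genes higher and 30.6% lower in batch 1, and 32% and 32.8% in batch 2. Foxa1, a pioneer factor of luminal cells, fell by 1.77 (SE 0.27) and 1.19 (SE 0.23), from 1.47 and 1.67 TPM in X2. Grhl2, an activator of Cdh1, fell by 1.38 (SE 0.23) and 1.41 (SE 0.23), from 0.542 and 0.606 TPM. Ovol1, a repressor of mesenchymal genes, fell by 1.04 (SE 0.20) and 1.25 (SE 0.22). Klf5 and Elf3 are named after their values were seen. Klf5 had the highest level of the list in X2 cells and fell from 65.2 ± 3.04 to 31.8 ± 1.14 TPM in batch 2. Elf3, an epithelial ETS factor, went up instead, by 1.04 (SE 0.13) in batch 2. The genes of the list named here other than Klf5 lay below 10 TPM. In CCR7 against X2 cells 3 of 7 fell and 0 rose, with a median of -0.35 (background 25.2% and 24%). Foxa1 passed the stricter call there too (-1.05, SE 0.25). X2-PDPN against X2 cells gave 5 of 8 lower and 1 higher, with a median of -0.33 (background 28.5% and 28.2%). The medians were -0.34 in CCR7-PDPN against CCR7 and -0.41 in CCR7-PDPN against X2-PDPN cells.

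Of 26 epithelial junction genes, 9 reached 1 TPM, among them Tjp1 (142 TPM in X2, named after its value was seen), which encodes the scaffold ZO-1 of epithelia and other tissues, and the median of the list was 0.0573 TPM. In the 6 comparisons at most 4 of the 9 or 10 genes tested rose and 2 to 5 fell, beside 20.9% to 32% of all genes higher and 20.7% to 32.8% lower. St14 (matriptase) was lower in CCR7-PDPN than in CCR7 cells by 1.11 log2 units (SE 0.15) and than in X2-PDPN cells by 1.13 (SE 0.14).

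**Figure D5:**
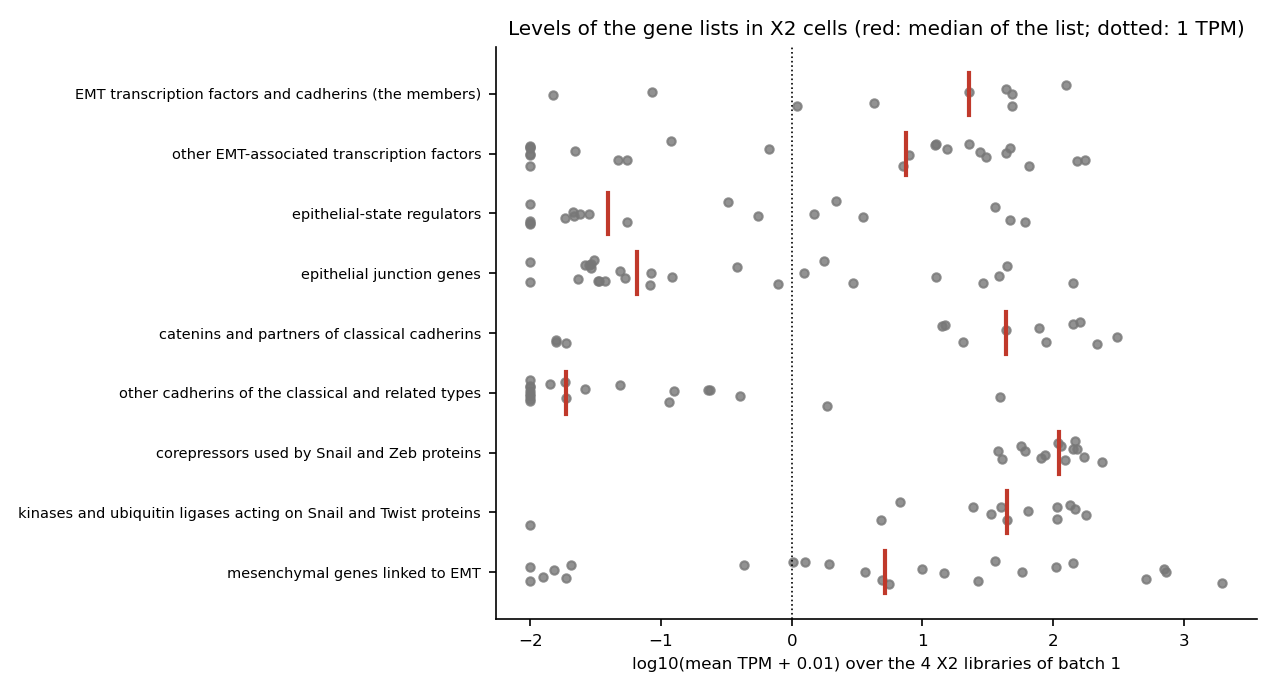
Levels of the 9 gene lists in X2 cells of batch 1, as log10(mean TPM + 0.01) over 4 libraries, 1 point per gene, with the median of each list in red and 1 TPM as a dotted line. Epithelial regulators, junction genes and other cadherins have medians below 0.1 TPM, and the corepressors and catenins medians of 112 and 43.9 TPM.

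Of 24 other transcription factors linked to EMT, 14 were tested, and 3 to 6 rose and 2 to 6 fell in each comparison. Over the comparisons 20.9% to 32% of all genes were higher and 20.7% to 32.8% lower, so these counts do not set the list apart. Hand1, a helix-loop-helix factor that can pair with Twist1, fell from 12.4 ± 2.21 TPM in X2 to 5.94 ± 1.06 TPM in CCR7 cells of batch 1. In X2-PDPN cells it stood at 36.8 ± 3.00 TPM, a rise of 1.55 log2 units (SE 0.07, edgeR adjusted p = 2.5e-22) against X2 of batch 2. CCR7-PDPN cells had 6.90 ± 0.324 TPM, 2.39 log2 units (SE 0.08) below X2-PDPN. Klf8, a repressor of Cdh1, fell by 1.42 (SE 0.10) in CCR7 and by 1.21 (SE 0.09) in CCR7-PDPN against X2 cells of batch 1, and by 1.06 (SE 0.09) in CCR7-PDPN against X2 cells of batch 2. In X2-PDPN cells it stood at 7.40 ± 0.378 TPM against 6.81 ± 0.223 TPM in X2.

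Mesenchymal genes linked to EMT mostly rose in X2-PDPN cells and were mostly lower in CCR7-PDPN than in X2-PDPN cells. In X2-PDPN against X2 cells 12 of 17 tested rose and 4 fell, with a list median of 0.23 log2 units, beside 28.2% of all genes higher, 28.5% lower and a median of 0.00. In CCR7-PDPN against X2-PDPN cells 2 rose and 14 fell, 9 of them past the stricter call, with a median of -1.09. Of all genes 31.2% were higher, 32% lower and 9.16% past the stricter call. The step from CCR7 to CCR7-PDPN gave 4 higher and 4 lower, with a median of -0.06 (background 20.9% and 20.7%). CCR7 against X2 gave 5 higher and 9 lower, with a median of -0.22 (background 24% and 25.2%). Against X2, CCR7-PDPN cells had 6 higher and 9 lower in batch 1 (background 30.3% and 30.6%). In batch 2 these numbers were 7 and 9 (background 32% and 32.8%). Tgfbi, a matrix protein named for its induction by TGF-beta, rose from 14.1 ± 0.762 to 108 ± 2.61 TPM in X2-PDPN cells and stood at 12.0 ± 0.456 TPM in CCR7-PDPN cells. S100a4, also called fibroblast-specific protein, rose from 40.5 ± 1.75 to 167 ± 5.05 TPM in X2-PDPN cells. In CCR7-PDPN cells of batch 2 it stood between them, at 71.5 ± 4.63 TPM. Col3a1, a fibrillar collagen, was higher in both, at 10.8 ± 0.502 TPM in X2-PDPN and 10.0 ± 0.288 TPM in CCR7-PDPN cells against 1.84 ± 0.135 TPM in X2. Acta2, smooth muscle actin, was at 102 ± 2.01 TPM in X2-PDPN and 24.4 ± 0.965 TPM in CCR7-PDPN cells, against 56.7 ± 1.08 TPM in X2.

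Loxl2, a collagen cross-linking enzyme, fell from 26.8 ± 0.809 TPM in X2 to 0.0480 ± 0.0303 TPM in CCR7 cells (-9.05 log2 units, SE 0.14). Mmp3, a stromelysin, went from 3.66 ± 0.827 TPM to 0.884 ± 0.200 TPM (-2.05, SE 0.24), and CCR7-PDPN cells had 0.506 ± 0.147 TPM. Mmp2, which degrades basement membrane collagen, was lower in all 6 comparisons. The fall was 1.53 (SE 0.28) in CCR7 and 2.22 (SE 0.28) in X2-PDPN against X2 cells, from levels of 1.26 and 1.53 TPM in X2. Its level in CCR7-PDPN cells of batch 1 was 0.0188 ± 0.0217 TPM. With at most 40 reads in any library of batch 1 and the highest level in X2, these falls are given as a description.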

How the data were processed

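The authors deposited raw read counts per Ensembl gene, 1 table per batch, without normalization and without pooling of the libraries. Gene lengths, the other column used, were also deposited. Single-end reads of 75 bases from a stranded kit had been mapped to GRCm38/mm10. The aligner and the strand setting of the counting are not given in the sources used here. Each gene of the batch 2 table reached 10 counts in some library.

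Counts were compared with edgeR 4.0.16 in R 4.3.3 after filterByExpr and TMM scaling, by robust quasi-likelihood fits of all 3 derivatives of a batch together, with Benjamini-Hochberg adjustment over 13261 or 13314 genes. The interaction was fitted over 24 libraries and 13690 genes. TPM used the deposited lengths, and log2 CPM a prior count of 2. The alternatives were DESeq2 1.42.0, RLE factors, no filter, only the groups compared, a replicate block, each library left out, and the median within 5 Mb subtracted. Exact permutation tests of members below the filter were added after seeing the data. The fits were tested on simulated data.

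Members and gene lists were chosen with earlier results of these data known. Beside the members, list genes past the stricter call could be named, at most 4 per list and comparison by size of change (others are said to be named after their values were seen), with the 3 genes most like a member whose group means span at least 1 log2 unit and the neighbours of Cdh1, Zeb1 and Cdh2. Of 55471 identifiers, 55230 were in GENCODE M21. Promoters came from RefSeq for 5 of 9 members. The interval of a log2 fold change comes from its standard error in the fit, which includes the spread between libraries. Limits from counts cover counting error only. Python 3.11.15, scipy 1.17.1 and matplotlib 3.10.9 were used.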

Additional observations from a re-analysis of the deposited data

Results flagged for a closer look

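Prrx1 was flagged because its PDPN difference differed with and without Ccr7, by -2.06 log2 units in the interaction test of edgeR (adjusted p = 3.8e-10), and Snai1 for the same reason, by -0.36 (adjusted p = 3.6e-04). Both tests set batch 1 against batch 2.

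In 48 groups of 4 libraries, 2 had a library far from the other 3. These were the X2 library of batch 2 with the highest level of Zeb2, 22.3 TPM, and the X2 library of batch 1 that held the single Cdh2 read, 0.0193 TPM. A single read beside counts of 0 is always flagged, and a group with only counts of 0 cannot be. The number flagged therefore cannot be set against chance.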

How the results depend on the processing

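Of the 39 fold changes of members, all kept their direction and their side of the threshold under DESeq2 and RLE factors. Those that changed sign were small or shared by a neighbourhood. Without the filter on low counts, Twist2 in CCR7-PDPN against CCR7 cells was 0.0024, and in CCR7-PDPN against X2-PDPN cells Twist2 was 0.0070 and Zeb1 0.0045. With each library left out in turn, these ranged from -0.0303 to 0.0257, from -0.0139 to 0.0174 and from -0.0400 to 0.0079, and Snai2 in CCR7-PDPN against CCR7 cells from -0.86 to 0.16 (without CCR7 replicate 2). With the median within 5 Mb subtracted, Zeb1 was 0.0305 in CCR7-PDPN against CCR7, 0.0380 and 0.0317 in CCR7-PDPN against X2 of batch 1 and batch 2 and 0.17 in X2-PDPN against X2 cells, and Twist1 was -0.0582 in CCR7-PDPN against X2 cells of batch 1. Members past the stricter call numbered 1 in X2-PDPN against X2 cells and 2 in CCR7-PDPN against X2 cells of batch 2, both without the filter and by DESeq2, since Snai2 then entered, and 0 to 1 and 1 to 2 with each library left out. The interaction called 2 to 4 members with each library left out. Zeb1 passed it under RLE factors (-0.11, adjusted p = 0.0495). Samples of the same replicate number shared only the number: their deviations correlated at a median of 0.00676 (-0.120 to 0.106 over 24 pairs), and 7 of 24 libraries correlated best with their own number. With the replicate block, 2, 1 and 2 members of batch 1 and 0, 1 and 1 of batch 2 passed the stricter call, the interaction called 2, and no call of a member changed. At 1 to 25 reads per library, depth limits Snai2, and Cdh1 and Cdh2 were at or near 3 reads.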

Other observations

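The machinery through which Snail and Zeb proteins act was expressed in every derivative of batch 1. All 14 corepressor genes reached 10 TPM, with a median of 112 TPM in X2 cells. In CCR7-PDPN against X2 cells 7 of them rose and 2 fell in batch 1 and 8 rose and 3 fell in batch 2, with list medians of 0.09 and 0.10 log2 units beside 0.00 for all genes. Of all genes 30.3% rose and 30.6% fell in batch 1, and 32% and 32.8% in batch 2. Ajuba, a LIM protein that Snail uses as a corepressor, was the 1 gene past the stricter call, falling from 87.1 ± 2.34 to 41.6 ± 1.26 TPM in batch 1 (-1.04, SE 0.04, edgeR adjusted p = 1.3e-15). Of 13 kinases, phosphatases and ubiquitin ligases that act on Snail or Twist proteins, 12 were tested. Between 2 and 4 of them rose and 3 to 6 fell in each comparison, beside 20.9% to 32% of all genes higher and 20.7% to 32.8% lower.

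Fmo1, a flavin monooxygenase gene and the nearest gene tested on one side of Prrx1 at 415558 bp, is named after its values were seen. Its log2 fold changes were -1.62 (SE 0.40, edgeR adjusted p = 0.0019) in CCR7 against X2, -2.18 (SE 0.50, adjusted p = 2.4e-04) in CCR7-PDPN against X2-PDPN and -0.59 (SE 0.32, adjusted p = 0.11) in X2-PDPN against X2 cells. Gorab, the nearest on the other side, had -0.22 (SE 0.07), -0.18 (SE 0.07) and -0.19 (SE 0.06) in the same comparisons. In CCR7-PDPN against CCR7 cells, where Prrx1 fell by 2.34, Fmo1 had -0.80 (SE 0.57, edgeR adjusted p = 0.27) and did not pass. Gorab had -0.15 (SE 0.07) there.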
